A study of Mus musculus with 11 samples.

Results

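The genes described here serve MHC class I antigen presentation: the heavy chains H2-K1 and H2-D1 with their shared light chain B2m, the peptide transporter subunits Tap1 and Tap2 with the loading factor Tapbp (tapasin), the inducible proteasome subunits Psmb8, Psmb9 and Psmb10, and the proteasome activator subunit Psme1. They were chosen by symbol, as every probe set that the array's annotation assigns to 1 of these genes alone, and they make 10 of the 12393 genes with such a probe set. All 10 had at least 1 probe set above the filter on low signals, so none was left out of the test, although 7 of their 26 single-gene probe sets were below it.

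The arrays hold total RNA of sympathetic ganglia, the clusters of nerve cell bodies that send sympathetic fibres to organs and vessels. The tissue was frozen fresh and cut out with a laser under the microscope. The series title places the study in work on signals between the atherosclerotic aorta and peripheral nerves. There were 6 arrays from Apoe-deficient mice (genotype apoE-/-) and 5 from wild-type mice. Both groups were male mice of strain C57BL, aged 78 weeks, bought from the Jackson Laboratory and kept on normal chow. Mice without apolipoprotein E, which carries lipid particles to their receptors, have high plasma cholesterol and develop atherosclerosis; as the labels give no cell type restriction, the loss is that of the whole animal and not of a ganglion cell type. The labels do not say which animal or how many animals an array holds, so p-values measure the spread between arrays, which may be technical, and would be too small if arrays shared an animal.

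Class I molecules show peptides cut from a cell's own proteins to CD8 T cells, and their absence is read by natural killer cells. The proteasome cuts the proteins, the Tap1-Tap2 transporter moves the fragments into the endoplasmic reticulum, and tapasin holds the empty class I molecule there until a peptide fits. Interferon raises most of these genes together, and in the immunoproteasome Psmb8, Psmb9 and Psmb10 take the places of the constitutive catalytic subunits Psmb5, Psmb6 and Psmb7. Resting neurons are known for low class I levels, while endothelial cells and macrophages carry more.

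The DNA upstream of the class I molecule genes is shown because interferon regulatory factors and NF-kB are known to act there. Each run is 250 bases ending just before a RefSeq start site, written 5′ to 3′ along the gene, in build GRCm38.p6. For H2-K1 the start sites were at 34000333 and 34000347. Its run ends before the latter, which lies upstream, so the bases between these sites are not shown. The H2-K1 stretch is chr17:34000348-34000597 on the minus strand, that of H2-D1 is chr17:35262844-35263093 on the plus strand, and that of B2m is chr2:122147437-122147686 on the plus strand. Capitals mark matches, on either strand, to AANNGAAA (the core bound by interferon regulatory factors) or GGGNNTTCC (a form of the NF-kB site).
H2-K1: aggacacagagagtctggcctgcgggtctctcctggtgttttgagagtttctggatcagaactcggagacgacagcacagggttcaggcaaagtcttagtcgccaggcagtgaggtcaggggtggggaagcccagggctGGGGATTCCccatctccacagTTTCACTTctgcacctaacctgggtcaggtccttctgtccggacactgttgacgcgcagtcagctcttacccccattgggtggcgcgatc
H2-D1: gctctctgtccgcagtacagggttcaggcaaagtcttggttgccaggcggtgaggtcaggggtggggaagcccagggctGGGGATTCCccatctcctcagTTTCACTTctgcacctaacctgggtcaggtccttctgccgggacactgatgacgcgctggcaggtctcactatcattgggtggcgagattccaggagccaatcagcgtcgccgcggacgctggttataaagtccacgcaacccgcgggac
B2m: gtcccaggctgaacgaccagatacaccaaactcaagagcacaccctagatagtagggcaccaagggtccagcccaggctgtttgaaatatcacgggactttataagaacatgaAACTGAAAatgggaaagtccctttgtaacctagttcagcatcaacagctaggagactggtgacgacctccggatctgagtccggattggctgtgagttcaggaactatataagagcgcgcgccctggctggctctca
The H2-K1 and H2-D1 stretches held the same pair of matches, GGGGATTCC followed by TTTCACTT, and a local alignment placed 161 of 177 columns identically (91.0%). B2m held AACTGAAA and no GGGNNTTCC match. A match is a run of letters and not a measured binding site.

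Tap1 and Psmb9 lie head to head, and the DNA between their start sites is shown because it serves both genes. It is 225 bases long, chr17:34187331-34187555 in GRCm38.p6, and is written on the plus strand, towards Tap1.
Tap1-Psmb9: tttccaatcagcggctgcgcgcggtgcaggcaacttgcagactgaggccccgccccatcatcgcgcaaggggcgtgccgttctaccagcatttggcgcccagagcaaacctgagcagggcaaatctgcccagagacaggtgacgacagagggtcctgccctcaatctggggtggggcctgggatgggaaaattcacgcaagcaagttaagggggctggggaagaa
No match to AANNGAAA, GGGNNTTCC or TTCNNNGAA (a gamma-activated site) was found in it, which says only that these letters were not there. RefSeq windows of 300 bases (250 before and 50 after the start site) were at hand for 9 of the 10 genes, all but Tap2. AANNGAAA was in the windows of H2-K1, H2-D1, B2m and Psme1 and in 23.9% of all 32851 windows; in Psme1 its 2 matches overlapped and lay after the start site. GGGNNTTCC was in the windows of H2-K1 and H2-D1 and in 5.82% of all windows, and TTCNNNGAA was in that of Psmb8 and in 8.3% of all windows. In the annotation's order on chromosome 17, Psmb9, Tap1, Psmb8 and Tap2 follow each other with no other protein-coding gene between them; H2-K1, H2-D1 and Tapbp are on the same chromosome, B2m is on chromosome 2, Psmb10 on chromosome 8 and Psme1 on chromosome 14.

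Apoe, the deleted gene, was checked first. Its deposited signal was at most 268.2 on the 6 Apoe-deficient arrays and at least 11830.3 on the 5 wild-type arrays. That is a log2 difference of -6.75 (SE 0.44, limma adjusted p = 1.88e-06), and every array was on the side of its label. Th, Dbh and Ddc, which make noradrenaline, fit the labelled tissue: Th signals ran from 9686.1 to 16933.3 on the Apoe-deficient arrays and from 12518.2 to 18058.1 on the wild-type arrays. Array medians lay between 163 and 188.6, rank correlations between arrays between 0.94 and 0.98, and no pair of arrays held identical values. The number of arrays limits the precision. By their spiked hybridisation controls the arrays were split into 3 levels at the 2 largest gaps, so the number of levels was a choice. Mean log2 control values were 10.87 to 11.07 at the low, 11.78 to 12.05 at the middle and 12.48 to 13.22 at the high level. The low level held Apoe-deficient replicates 2, 3 and 4 alone, so that for these arrays level and genotype cannot be told apart.

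None of the 10 genes was called between Apoe-deficient and wild-type ganglia by limma at an adjusted p of 0.05, where 163 of 8433 tested genes were (1.93%; 1.26% higher and 0.676% lower in the Apoe-deficient group). Psmb9 alone had an unadjusted p under 0.05, 1 of 10 beside 20.3% of all genes tested. The groups overlapped for all 10, whereas 2.96% of tested genes had groups that did not overlap and 1.36% were also called. Of the 10 differences, 7 were positive and 3 negative, with a median of 0.018 on the log2 scale beside -0.041 over all genes, and a median size of 0.15 beside 0.17. The signs of H2-D1, B2m, Tap1 and Tapbp turned under some other settings or without 1 array, and that of Tap2 with a macrophage covariate. A p that misses the threshold does not show that levels were equal: the 95% intervals allowed anything from a fold of 0.70 (Tap2) to a fold of 1.66 (Psmb9). In pieces of tissue, fewer cells of a type and less RNA per cell cannot be told apart.

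**Figure D1:**
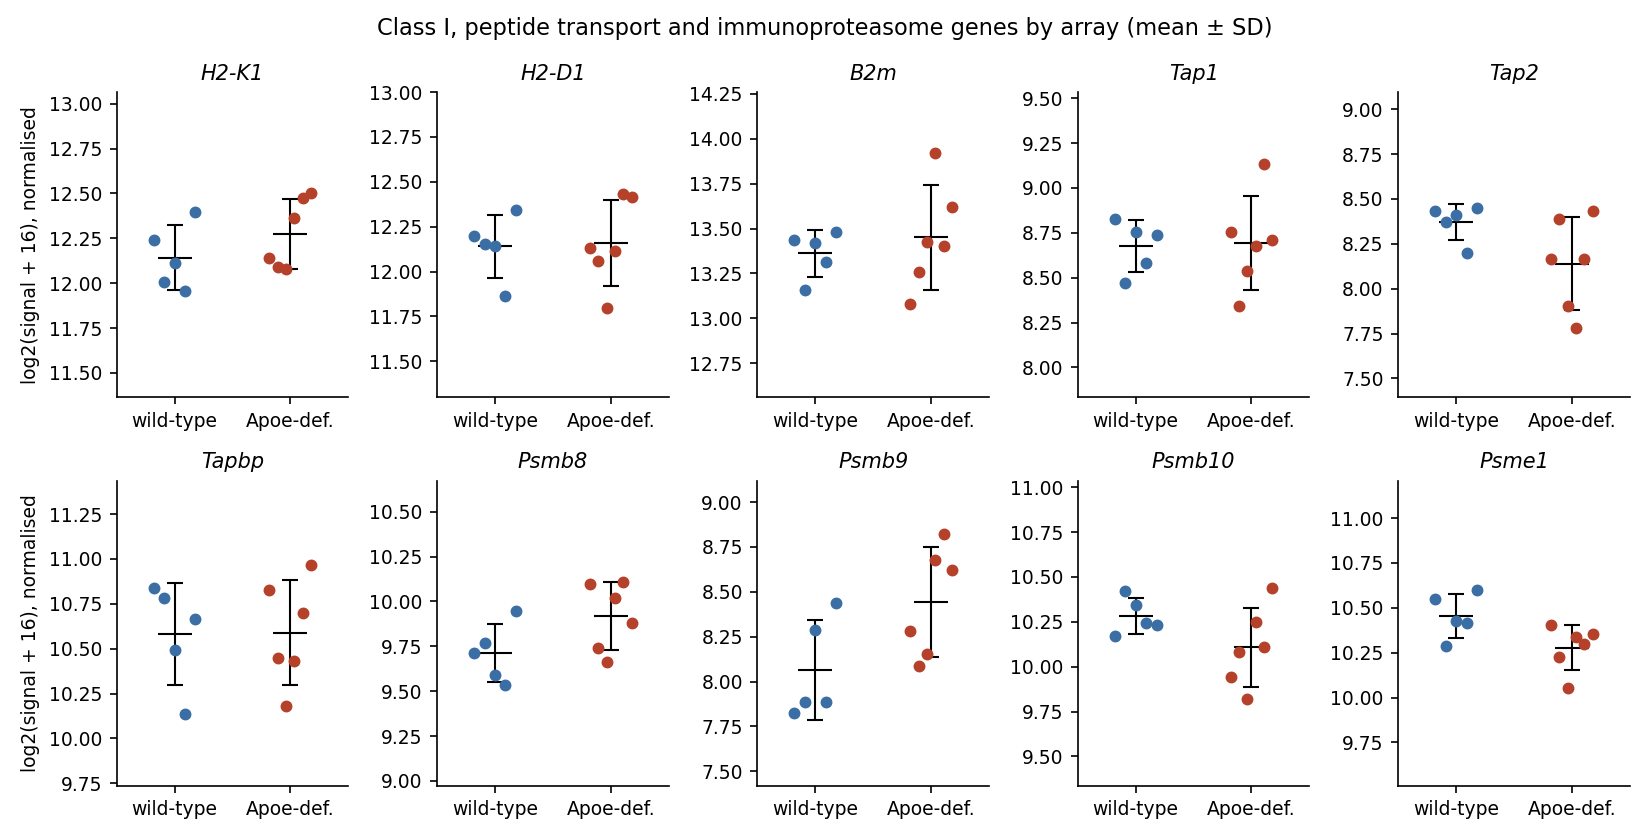
Normalised log2(signal + 16) of the 10 genes on each array (points), with the mean and SD of each group as a bar; 5 wild-type and 6 Apoe-deficient arrays. The groups overlap in all 10 panels, and the Psmb9 panel has 3 Apoe-deficient arrays above the highest wild-type array.

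H2-K1 and H2-D1 encode the peptide-binding heavy chains. For H2-K1 (probe set 1425336_x_at) the deposited signals were 4844.3, 4160, 4305.7, 4197.8 and 5300.3 on wild-type arrays 1 to 5, and on the Apoe-deficient arrays the lowest was 4173.3, the median 4945.6 and the highest 5920. After normalisation 2 of the 6 Apoe-deficient arrays lay above the highest wild-type array and the rest fell within the wild-type range. On the log2 scale the Apoe-deficient mean was higher by 0.13 (SE 0.11, 95% interval -0.099 to 0.36, limma adjusted p = 0.50, n = 6 and 5).

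For H2-D1 (1425545_x_at) the wild-type signals were 4700.4, 4627.2, 4411.1, 3910.3 and 5072.3, and the Apoe-deficient signals had a lowest value of 3576.6, a median of 4544.2 and a highest of 5502.5. The Apoe-deficient arrays reached past the wild-type arrays at both ends, 2 above and 1 below, before and after normalisation. The group means differed by 0.018 on the log2 scale (SE 0.12, 95% interval -0.24 to 0.27, limma adjusted p = 0.94), and the sign turned under several other settings.

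B2m, the light chain shared by the classical class I molecules, gave wild-type signals of 12422.2, 10328.3, 10540.8, 10330.6 and 11558.8 (1452428_a_at). Its Apoe-deficient signals ran from 7909.8 through a median of 10608.25 to 15541.9. These were wider apart than the wild-type signals, with an SD of 0.29 on the log2 scale beside 0.13, and the groups overlapped at both ends. The log2 difference of B2m was 0.089 (SE 0.12, 95% interval -0.17 to 0.35, limma adjusted p = 0.71), but -0.046 on the deposited scale without quantile normalisation, so B2m has no settled direction.

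Probe sets of one gene gave differences of unlike size, and for H2-K1 and H2-D1 also of unlike sign. The second B2m probe set, 1449289_a_at, read 6075.1, 5935.2, 6803.3, 7775.2 and 8027.6 on the wild-type arrays and between 7246.7 and 8759.4, median 8160.65, on the Apoe-deficient arrays. Here 4 of 6 Apoe-deficient arrays lay above all wild-type arrays, before and after normalisation. The difference in this probe set was 0.29 on the log2 scale (SE 0.098, 95% interval 0.077 to 0.49, limma unadjusted p = 0.011, adjusted p = 0.15 over 13863 probe sets). The spread of B2m over its probe sets, 0.089 to 0.29, is larger than the SE of either, but their 95% intervals overlap.

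H2-K1 had 4 single-gene probe sets, whose log2 differences ran from -0.030 to 0.46. The largest was that of 1427746_x_at, with wild-type signals of 1003.3, 841.9, 916.5, 1060.2 and 1201.5 and Apoe-deficient signals of 1161.8 at the lowest, 1242.45 at the median and 2146.6 at the highest. Of the Apoe-deficient arrays 5 lay above the wild-type arrays in the deposited signals and 4 after normalisation (log2 difference 0.46, SE 0.16, 95% interval 0.10 to 0.81, limma unadjusted p = 0.015, adjusted p = 0.17). The H2-D1 probe sets past the filter, 5 of 9, lay closer together, between -0.11 and 0.035.

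Over all 19 single-gene probe sets past the filter, 12 differences were positive and 7 negative. None was called, beside 1.35% of all probe sets tested, and 3 had an unadjusted p under 0.05, beside 19.3%. Of 3 further probe sets that the annotation shares between a member and another gene, 1451593_at (H2-Q5 and H2-K1) differed by -0.89 (SE 0.33, limma adjusted p = 0.18) and 1424948_x_at (H2-K1 and H2-D1) by 0.28 (adjusted p = 0.39), while the last was below the filter. The 4 single-gene probe sets of H2-K1 and most of H2-D1 carry the suffix _x_at, which the array maker gives to probe sets that may bind related sequences, so signal of class I paralogs cannot be told apart there.

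**Figure D2:**
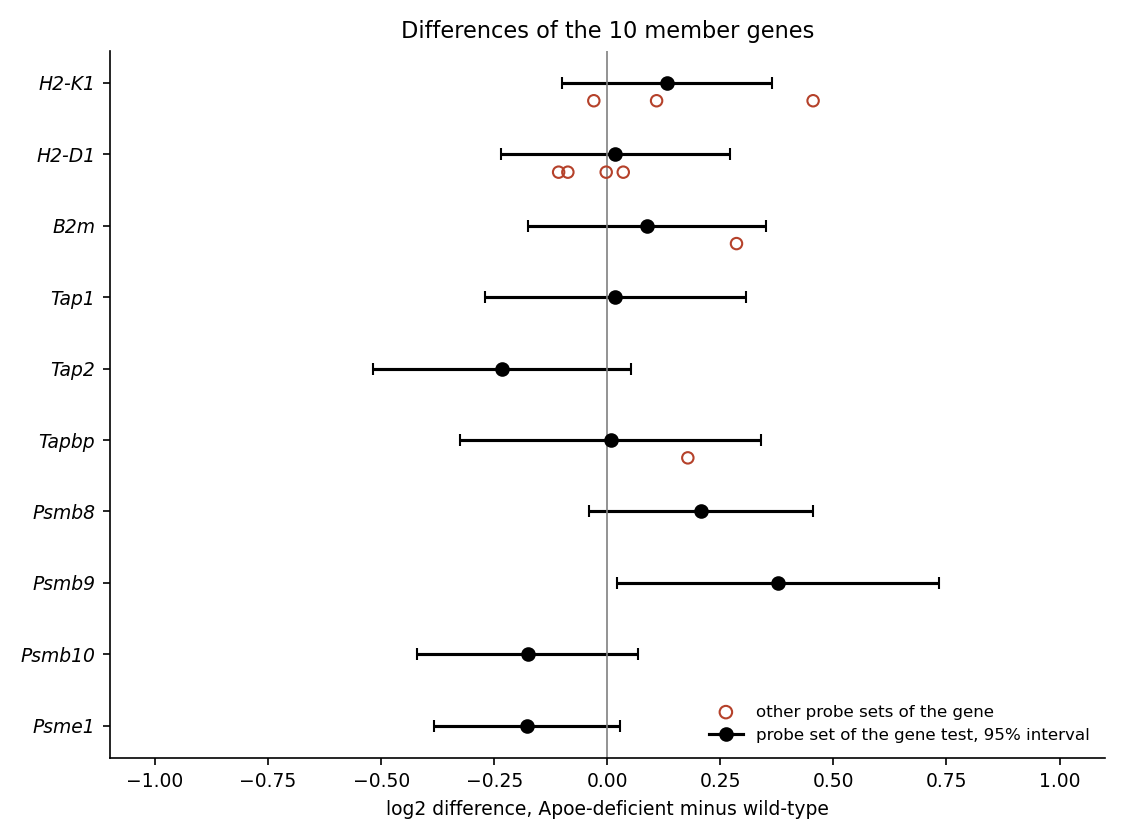
Log2 difference, Apoe-deficient minus wild-type, of the 10 genes; filled points are the probe sets that stand for the gene, with limma 95% intervals, and open circles the gene's other probe sets past the filter. The Psmb9 interval alone excludes 0 (0.021 to 0.73), and the H2-K1 and B2m probe sets spread over -0.030 to 0.46 and 0.089 to 0.29.

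Tap1 and Tap2 form the transporter that carries peptides into the endoplasmic reticulum. Tap1 (1416016_at) gave wild-type signals of 441.3, 333.4, 422.4, 351 and 419.1 and Apoe-deficient signals of 314.2 at the lowest, 399.5 at the median and 549.9 at the highest. One end of the Apoe-deficient range lay above and the other below the wild-type range, by 1 array each. Tap1 differed between the groups by 0.017 on the log2 scale (SE 0.14, 95% interval -0.27 to 0.31, limma adjusted p = 0.95), and the other 3 Tap1 probe sets were below the filter.

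For Tap2 (1453913_a_at) the wild-type signals were 333.1, 311.1, 331.9, 261.9 and 339.7, and the Apoe-deficient signals ran from 201.5 through a median of 271.35 to 341.9. In these signals 2 of 6 Apoe-deficient arrays lay below all wild-type arrays and 1 above, whereas after normalisation 4 lay below and none above. The log2 difference of Tap2 was -0.23 (SE 0.13, 95% interval -0.52 to 0.053, limma adjusted p = 0.33).

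Tapbp, tapasin, bridges the empty class I molecule to the transporter. Its signals (1421812_at) were 1784.8, 1712.1, 1417.3, 1109.3 and 1559.3 on the wild-type arrays, with Apoe-deficient values of 1187.4, 1526.2 and 1900.7 at the lowest, the median and the highest. In these signals 2 Apoe-deficient arrays lay above the wild-type range, 1 after normalisation, and the rest fell within it. Its group means differed by 0.0071 on the log2 scale (SE 0.16, 95% interval -0.33 to 0.34, limma adjusted p = 0.98), and a second probe set gave 0.18 (adjusted p = 0.69).

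The immunoproteasome genes did not share a sign. Psmb8 and Psmb9 were on the higher side in Apoe-deficient ganglia and Psmb10 and Psme1 on the lower side, none of them called. Psmb8 (1422962_a_at), which takes the place of Psmb5, read 813, 836.3, 760.1, 714.5 and 958.2 on the wild-type arrays and from 816.5 to 1088.3, median 977.15, on the Apoe-deficient arrays. Of the 6, 3 lay above the highest wild-type array and none below the lowest, before and after normalisation. The log2 difference of Psmb8 was 0.21 (SE 0.12, 95% interval -0.040 to 0.46, limma adjusted p = 0.32).

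Psmb9 (1450696_at), which takes the place of Psmb6, had the widest spread of the 10 genes, a range of 1 on the log2 scale. Wild-type signals were 215.2, 219.7, 304.2, 206.5 and 336.2, and the Apoe-deficient signals were 257.4 at the lowest, 340 at the median and 443.9 at the highest. The wild-type arrays fell into 3 of low and 2 of higher signal, and 3 Apoe-deficient arrays passed the highest of them, before and after normalisation. For Psmb9 the groups differed by 0.38 on the log2 scale (SE 0.17, 95% interval 0.021 to 0.73, limma unadjusted p = 0.040, adjusted p = 0.22), a fold of 1.30.

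Psmb10 (1448632_at), which takes the place of Psmb7, gave 1121.8, 1327.5, 1279, 1197.2 and 1184.8 on the wild-type arrays. Its Apoe-deficient signals were 914.2 at the lowest, 1105.15 at the median and 1324.9 at the highest. On both scales 4 arrays lay below all wild-type arrays, and 1 lay above them after normalisation but none in the deposited signals. The log2 difference of Psmb10 was -0.18 (SE 0.11, 95% interval -0.42 to 0.068, limma adjusted p = 0.39). Psme1 encodes a subunit of the ring that caps the proteasome and opens its gate.

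For Psme1 (1417056_at) the wild-type signals were 1456.1, 1199.1, 1361.7, 1360 and 1500.3, and the Apoe-deficient signals ran from 1087 through a median of 1247.2 to 1328.4. None of the Apoe-deficient arrays passed the highest wild-type array on either scale; below the lowest lay 1 array in the deposited signals and 2 after normalisation. That makes a log2 difference of -0.18 (SE 0.097, 95% interval -0.38 to 0.029, limma adjusted p = 0.31). Its partner Psme2 was not analysed here.

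Most of these values moved when the hybridisation level of the arrays was taken into the fit. The low level held Apoe-deficient arrays alone. In such a fit those arrays add nothing to the differences, which rest on the high and middle levels. With the level as a block, the log2 differences were 0.25 for H2-K1, 0.19 for H2-D1, 0.029 for B2m, 0.24 for Tap1, -0.14 for Tap2, 0.16 for Tapbp, 0.32 for Psmb8, 0.61 for Psmb9, -0.13 for Psmb10 and -0.10 for Psme1. All 10 kept the sign they had without the block and none was called (limma adjusted p from 0.21 for Psmb9 to 0.96 for B2m). All but B2m, Tap2, Psmb10 and Psme1 were larger with it, by more than 10 times for H2-D1, Tap1 and Tapbp, whose values without the block were close to 0. Within the high level, 2 arrays a group, the differences ran from -0.11 (Psmb10) to 0.60 (Psmb9). Within the middle level, 1 Apoe-deficient array against 3 wild-type arrays, they ran from -0.19 (Tap2) to 0.62 (Psmb9), with 0.44 for Tap1, 0.32 for H2-D1 and -0.0050 for B2m.

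Whether paired subunits moved unequally was tested within arrays, as the log2 value of each inducible subunit minus that of the constitutive subunit it replaces. Such a difference compares a pair of probe sets across the groups and does not measure how much of each protein there is. Psmb9 minus Psmb6 was -3.42 ± 0.28 (SD, n = 6) in the Apoe-deficient group and -3.92 ± 0.42 (SD, n = 5) in the wild-type group, a difference of 0.50 (exact two-sided permutation test over 462 splits, p = 0.043, 0.093 after Benjamini-Hochberg adjustment over the 3 pairs). Of the Apoe-deficient arrays, 3 of 6 lay above the highest wild-type array. Psmb6 itself differed by -0.12 (limma adjusted p = 0.52) and was high in wild-type replicate 2.

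Psmb8 minus Psmb5 differed by 0.20 in the same direction, with means of -2.14 ± 0.15 (SD, n = 6) and -2.33 ± 0.20 (SD, n = 5) and an exact permutation p = 0.093 (0.093 adjusted). Psmb10 minus Psmb7 differed by -0.27, with means of -2.32 ± 0.29 (SD, n = 6) and -2.05 ± 0.14 (SD, n = 5), an exact permutation p = 0.084 (0.093 adjusted) and 4 of 6 Apoe-deficient arrays below the lowest wild-type array. None of the 3 pairs passed after adjustment, and each passed in only 1 of 23 alternatives. Without wild-type replicate 5 the Psmb8 and Psmb9 pairs passed (0.28 and 0.62, exact permutation test, adjusted p = 0.036 each), and without Apoe-deficient replicate 6 the Psmb10 pair did (-0.36, adjusted p = 0.048). Without the low hybridisation level, by contrast, the Psmb10 pair differed by -0.091 (exact permutation test, adjusted p = 0.48), and with the level as a block by -0.14 (adjusted p = 0.42); within the high and middle levels it was -0.19 and -0.067. The Psmb9 pair differed by 0.59 without the low level (adjusted p = 0.16) and by 0.74 with the block (adjusted p = 0.13). For the Psmb8 pair these were 0.27 and 0.29 (adjusted p = 0.16 and 0.13). The block test also leaves out the low level, which has no wild-type array, and has 24 relabellings. Its smallest possible exact permutation p, 0.042 before adjustment, was that of the Psmb8 pair, so it could hardly pass after adjustment. Psmb5 and Psmb7 themselves differed by 0.012 (limma adjusted p = 0.94) and 0.096 (adjusted p = 0.58).

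**Figure D3:**
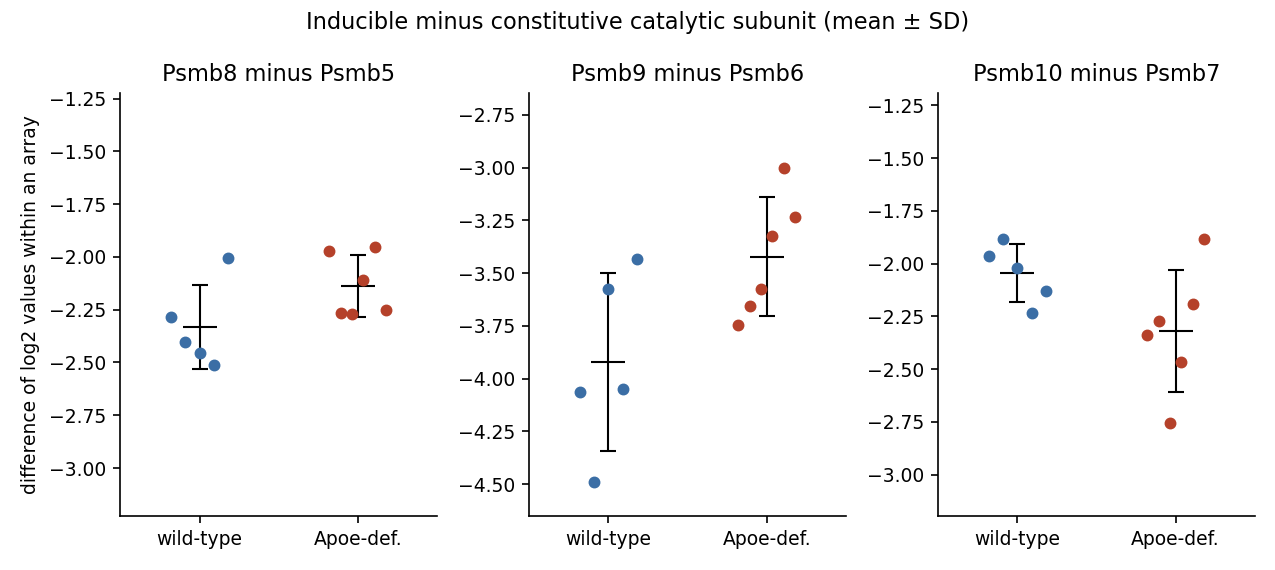
Log2 value of each inducible proteasome subunit minus that of the constitutive subunit it replaces, per array (points), with the mean and SD of each group as a bar; 5 wild-type and 6 Apoe-deficient arrays. The Psmb9 pair is higher by 0.50 and the Psmb10 pair lower by 0.27 in the Apoe-deficient group, and the groups overlap in each pair.

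The rest of the pathway was described from 8 lists, and none of their genes was called by limma, beside 1.93% of all genes tested. Together with the 10 genes and the cell type markers the lists held 201 genes, of which 172 had a single-gene probe set. Among other class I and class I-like heavy chains, 9 of 27 could be tested, with a median log2 difference of -0.048. Of the 9, 4 had an unadjusted p under 0.05 (44.4%, beside 20.3% of all genes tested). H2-Q10, a secreted class I molecule made mainly by liver, gave 7.4, 94.7 and 197.1 at the lowest, median and highest Apoe-deficient array and between 178.3 and 620.3 on the wild-type arrays. Its log2 difference was -1.80 (SE 0.47, limma adjusted p = 0.065). H2-M3, which presents peptides with a formylated start, did not overlap between the groups, as was so for 2.96% of all genes tested. It read 485.5 to 667.9 on the Apoe-deficient and 412.3 to 480.8 on the wild-type arrays, a log2 difference of 0.30 (SE 0.10, limma adjusted p = 0.14).

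Partners of class I loading in the endoplasmic reticulum had the highest median of the pathway lists, 0.15 on the log2 scale over 10 tested genes. Of the 10, 3 had an unadjusted p under 0.05 (30%, beside 20.3% of all genes tested). Hspa5, the chaperone BiP, differed by 0.27 (SE 0.080, limma adjusted p = 0.10) and Pdia3, the thiol oxidoreductase of the loading complex, by 0.39 (SE 0.16, adjusted p = 0.20). Neither was called. Of the 8 activator and assembly genes 1 had an unadjusted p under 0.05 (12.5%, beside 20.3%). This was Psmf1, an inhibitor of the proteasome, at 0.25 (limma adjusted p = 0.23), and the assembly chaperone Psmg2 stood at 0.29 (adjusted p = 0.28).

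The core of the proteasome lay near the median of all genes. The 11 other subunits of the 20S core lay between -0.10 (Psma6) and 0.14, none with an unadjusted p under 0.05; Psma3 stood at 0.13 (limma adjusted p = 0.40). Of the 20 tested 19S regulator subunits 4 had an unadjusted p under 0.05 (20%, beside 20.3% of all genes tested), with a list median of 0.022. Psmd3 and Psmd1, scaffold subunits of the 19S particle, had the smallest p-values, at -0.50 (SE 0.16, adjusted p = 0.12) and -0.28 (SE 0.10, adjusted p = 0.15).

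Regulators of class I genes had 19 of 26 tested members and a median of -0.015. Of the 19, 3 had an unadjusted p under 0.05 (15.8%, beside 20.3% of all genes tested). Irf1, the interferon-induced activator of Tap1 and Psmb9, read 896.1, 1014.3 and 1356.2 at the lowest, median and highest Apoe-deficient array and 1010.1 to 1196.6 on the wild-type arrays, a log2 difference of -0.10 (SE 0.12, limma adjusted p = 0.66). Irf8, an interferon regulatory factor of myeloid and B cells, stood at 0.54 (SE 0.20, adjusted p = 0.17) and Stat3 at -0.40 (SE 0.16, adjusted p = 0.20). Ciita was below the filter, and Nlrc5 was not analysed here.

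A list of class I receptors together with other T and natural killer cell genes was mostly below the filter, which 2 of the 18 genes with a probe set passed. Klrk1 encodes NKG2D, a receptor for class I-like stress ligands. It read 70.3 to 103.2 on the Apoe-deficient and 116.2 to 163.9 on the wild-type arrays. These groups did not overlap, as with 2.96% of all genes tested. On the log2 scale Klrk1 differed by -0.55 (SE 0.17, limma adjusted p = 0.10). Its signals were low, and the filter asks for 5 arrays, the number of wild-type arrays. A low gene can thus pass by the wild-type arrays alone, which favours groups without overlap. Whether this was so for Klrk1 was not tested. Nkg7, a cytotoxic granule gene, stood at 0.56 (SE 0.30, adjusted p = 0.30). Cd8a, Cd8b1, Cd3d, Cd3e and Cd3g were below the filter.

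**Figure D4:**
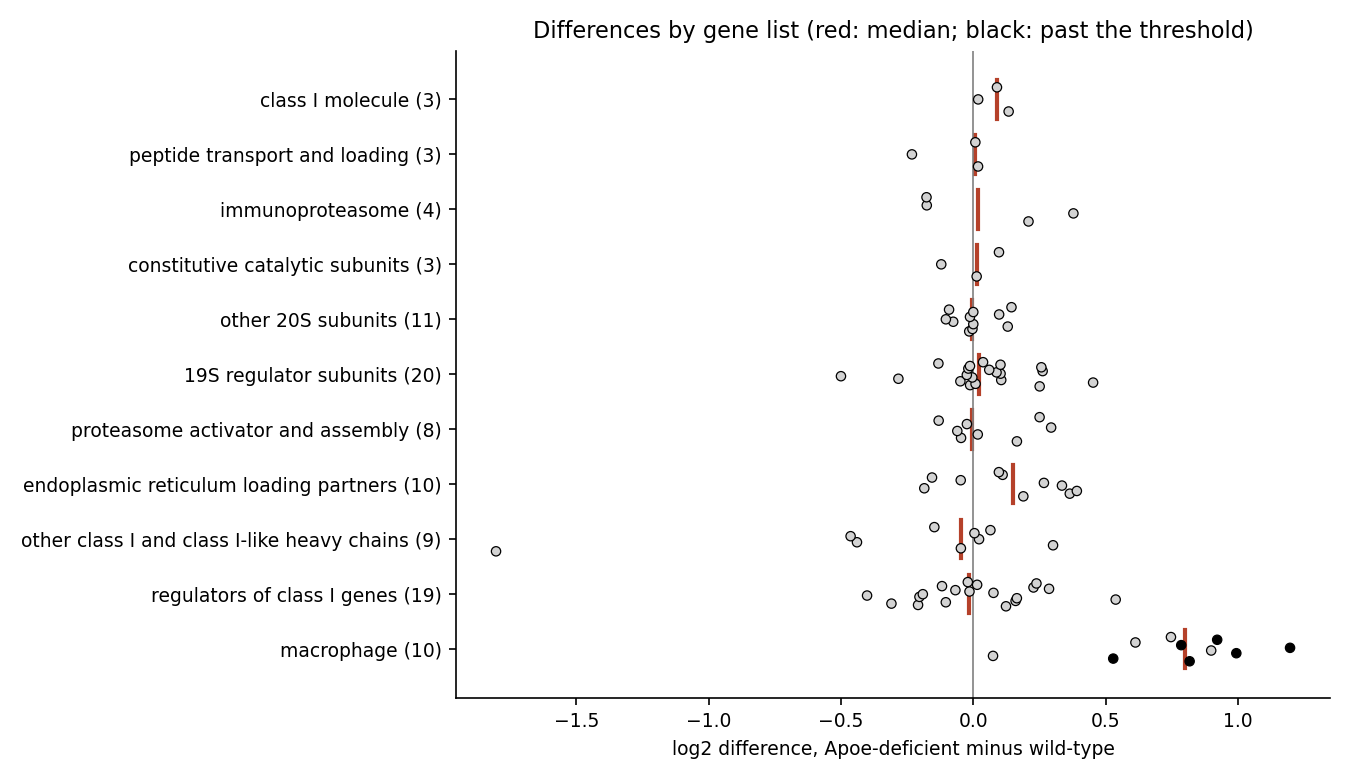
Log2 difference, Apoe-deficient minus wild-type, of each tested gene by list, with the number of genes in brackets and the list median as a red line; black points are called by limma and grey points are not. None of the points in the class I and proteasome lists is black, while 6 of 10 macrophage markers are, with a list median of 0.80. Over all genes tested 1.93% were called.

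Beside these values, some markers of macrophages and of B and plasma cells were called between the groups, and no marker of the other cell type lists was. For macrophages, the summed signal of 10 markers was 8581 to 11833 on the Apoe-deficient arrays and 5154 to 6879 on the wild-type arrays, without overlap, and 6 of the 10 markers were called higher. For B and plasma cells it was 17696 to 116184 against 1659 to 23240, with 2 of 4 tested markers called higher and Cd79a and Cd79b below the filter. For T and natural killer cells it was 469 to 1089 against 326 to 682, with 8 of 9 markers below the filter. The endothelial sums overlapped, at 2924 to 4092 and 3031 to 3669, with Tie1 below the filter and none of the 9 tested markers called. Adipocyte sums were 5625 to 41119 against 17682 to 51499, with a median log2 difference of -0.77 over 6 markers. Fibroblast sums were 11151 to 17404 against 8370 to 12824, with a median of 0.46 over 6 markers. An unadjusted limma p under 0.05 was found for 16.7% of the adipocyte and 50% of the fibroblast markers, beside 20.3% of all genes tested. With the mean macrophage value as a covariate the Psmb9 log2 difference was 0.65 (limma adjusted p = 0.82), and with the mean endothelial value 0.42 (adjusted p = 0.16). The covariate for macrophages nearly follows genotype, and its part in the values above was not tested further.

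Across the 11 arrays the 10 genes tended to be high or low on the same arrays. Set against each gene's mean over the 11 arrays, wild-type replicate 5 was above it in 10 of the 10 genes and Apoe-deficient replicate 6 in 9, whereas Apoe-deficient replicates 2 and 3 were so in 1 gene each. Apoe-deficient replicates 2 and 3 were at the low hybridisation level and replicate 6 at the high level. Apoe-deficient replicate 4, also at the low level, was above the mean in 5 genes. The part of the level was not tested here. The mean deviation of the 10 genes ran from -0.23 in Apoe-deficient replicate 3 to 0.20 in Apoe-deficient replicate 6. Apoe-deficient replicate 5 held the highest value of 4 genes. As a description over the 11 arrays, after subtraction of each group's mean, H2-D1 and H2-K1 followed the mean of the other 9 genes most closely, with Pearson r = 0.94 and 0.92, although their probe sets may share signal. B2m and Tap2 followed it least, with r = 0.27 each. The 5 genes of all tested whose values were most like the mean of the 10 by the same measure were Ankzf1 (r = 0.97), Krt32 (0.95), Gm5802 (0.93), Nckap1l (0.93) and Dxo (0.93), and none of these was called between the groups.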

How the data were processed

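Affymetrix probe-set intensity was deposited by the authors as 1 value per probe set and array, made with GCOS 1.4, per the submitters' processing notes; other settings were not stated there. The 2% trimmed means of the 11 arrays averaged 500.2. Scaling arrays to a set mean fixes the average and hides any shift of all genes. From the 22690 probe sets, 64 controls were removed; of the rest 20380 named 1 gene, 691 several and 1555 none. Intensities became log2(signal + 16), which understates changes of low genes, and were quantile normalised. A probe set had to exceed the 40th percentile in at least 5 arrays, and the one of highest mean represented its gene. Groups were compared across all 11 arrays with limma 3.58.1 in R 4.3.3 (intensity trend, two-sided, Benjamini-Hochberg adjustment over all 8433 genes, threshold 0.05); the procedure was tested on simulated data. Subunit pairs were compared by exact permutation.

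The members and lists were chosen with earlier results of these data known. Named genes were the members, Apoe, the constitutive subunits, a few set regulators, every called gene of a pathway list or otherwise its 2 genes of smallest p, and the 5 genes most correlated with the members' mean. Sympathetic neuron (10 markers, median log2 difference -0.0068), satellite glia (6, -0.035), adipocyte (6, -0.77) and fibroblast markers (6, 0.46) had no called gene. Hybridisation levels were split at the 2 largest gaps of the spiked controls. Alternatives covered normalisation, pseudocount, filter, probe set rule, variance model, weights, blocks, covariates and leaving out each array. Promoter sequences are from RefSeq (GRCm38.p6), read with Python 3.11.15 and aligned with Biopython 1.88; figures were drawn with matplotlib 3.10.9.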

Additional observations from a re-analysis of the deposited data

Results flagged for a closer look

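Of 26 sets of values, each 1 gene in 1 group, 1 held an array whose gap to the next, as a share of the group's range, was above Dixon's 95% critical value, a limit that by its definition about 1 in 20 groups pass by chance. Psmb6, a constitutive catalytic subunit, had a normalised log2 value of 12.37 in wild-type replicate 2, where the next highest wild-type array had 11.94. Without that array the Psmb9 minus Psmb6 difference between the groups was 0.36 (exact permutation test, adjusted p = 0.17).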

How the results depend on the processing

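None of the 10 genes was called by limma under any of 28 alternatives. H2-K1, Psmb8 and Psmb9 stayed higher and Psmb10 and Psme1 lower in all 28 (Psmb9 0.26 to 0.65, smallest adjusted p 0.16; Psme1 -0.26 to -0.10, smallest adjusted p 0.14). Signs turned for B2m without a step between arrays (-0.046), with the macrophage covariate (-0.41) and without Apoe-deficient replicate 4 (arrays left out: -0.0056 to 0.16); for H2-D1 with the mean of its probe sets (-0.029), array weights (-0.044), the replicate block (-0.034) and arrays left out (-0.053 to 0.092); for Tap1 with array weights (-0.060) and arrays left out (-0.071 to 0.087); for Tapbp with array weights (-0.069), the replicate block (-0.068) and arrays left out (-0.10 to 0.089); and for Tap2 with the macrophage covariate (0.26). The cause was not tested. The count of 163 genes called became 668 with array weights (290 higher, 378 lower), 45 with the hybridisation level as a block, 24 without the low level (fewer arrays), 0 with the macrophage covariate (554 at an unadjusted p under 0.05) and 75 to 267 with arrays left out. With the level as a block Tap1 was 0.24, H2-D1 0.19, H2-K1 0.25 and Tapbp 0.16, and without the low level the Psmb10 pair was -0.091 and the Psmb9 pair 0.59. Over arrays left out, the Psmb8 pair ran from 0.15 to 0.28, the Psmb9 pair from 0.36 to 0.62 and the Psmb10 pair from -0.36 to -0.19. The labels number the replicates without naming a pairing. Deviations from the group means correlated at -0.18 to 0.15 between arrays of the same number, which cannot exclude one. With the replicate block 185 genes were called, and the Psmb9 pair differed by 0.46 (exact permutation over 32 relabellings, p = 0.0625, the smallest it allows). The subunit pairs were not run with array weights or covariates. Signal over background limits what the low probe sets can show: 3 of Tap1 and 4 of H2-D1 were below the filter and entered no test.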
